A study of Drosophila melanogaster with 90 samples.

Results

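The subunit genes of the proteasome were followed through whole Drosophila melanogaster females that had mated with males of their own or of another inbred line, or had stayed virgin. Members were all genes whose deposited symbol starts with Prosalpha, Prosbeta, Rpn or Rpt and a digit, or with Pros and a 2-digit number. This gave 41 of 14514 genes, 28 constitutive subunits (7 alpha, 6 beta, 8 base and 7 lid) and 13 testis-type copies, whose names end in T or R with or without a number. Of the 41, 40 had enough counts to be tested. The exception was Prosalpha1, a subunit of the alpha ring, which was listed at 0 counts in all 89 libraries, so that 27 constitutive genes have values here. Its copy Prosalpha1R was listed at 0 too, and how any reads shared by both were counted is not given. The 0 is therefore not read as absence of Prosalpha1 RNA, which was not tested.

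Mated females of Beijing, Ithaca, Netherlands, Tasmania and Zimbabwe were each crossed to males of all 5 lines, which gives 25 crosses, and virgin females of each line were frozen in parallel. A cross is written with the female line first. Mating preceded freezing by 5 to 6 h. Flies were aged 3 to 5 days and kept at 25 °C, and each library was made from a pool of 5 to 10 females. The count table holds 74 mated and 15 virgin libraries. A mated group had 3 libraries, except Ithaca x Zimbabwe, which had 2, and each virgin group had 3. The labels name an inbred line and no transgene or agent for each group, so a difference between lines is one between single stocks. Total counts ran from 4407704 to 38799730 per library.

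The proteasome degrades proteins that carry ubiquitin chains. Its core particle is a barrel of alpha rings, which gate the entry, around beta rings, which hold the protease sites. A cap sits on the barrel: the base of the cap contains the Rpt ATPases, which unfold substrates and open the gate, and large scaffold proteins, and the lid removes the ubiquitin. Several subunits have duplicated copies in Drosophila melanogaster that are used in the male germline, and the copies Prosalpha6T and Prosalpha3T are known from testis. Whole females contain ovaries with maturing eggs, so their proteasome RNA cannot be given to 1 tissue, and fewer cells of a type and less RNA per cell cannot be told apart.

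Several members stand in the table under older names, and the current ones are used here. Pros25, Pros29, Pros28.1 and Pros35 are Prosalpha2, Prosalpha3, Prosalpha4 and Prosalpha6, Pros26 is Prosbeta6, Pros26.4 and Pros45 are Rpt2 and Rpt6, and Pros54 is Rpn10. Among the copies, Pros28.1A and Pros28.1B are Prosalpha4T1 and Prosalpha4T2, and Prosbeta5R is Prosbeta5R1.

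The constitutive subunits were abundant in every library. Levels are given in CPM, the counts scaled to a common library size, and, between genes, in CPM per kb of exon. Core subunits led the order per kb. Prosbeta6, a beta ring subunit without a protease site, had 245 ± 55.6 CPM per kb, Prosalpha2 had 240 ± 42.3 and Prosalpha3 had 231 ± 48.4, both of the alpha ring (mean ± SD, n = 89 libraries). At the low end stood Rpt4, an ATPase of the base, with 97.2 ± 12.4 CPM per kb, and the scaffolds Rpn2 and Rpn1 with 99.0 and 99.3 CPM per kb. These neighbours in the order lay within 1 SD of each other at both ends. The 3 catalytic subunits were close to one another, at 188 CPM per kb for Prosbeta1, which cuts after acidic residues, 186 for Prosbeta2, which cuts after basic residues, and 181 for Prosbeta5, which cuts after hydrophobic residues. Among the cap members, Rpn11, the deubiquitinase of the lid, was highest with 175 CPM per kb, followed by Rpn12 of the lid with 161 and the ATPase Rpt1 with 152. Rpn10, a ubiquitin receptor, had 148 and the ATPase Rpt2 had 142. All 12 core members with values thus lay above all 15 cap members in CPM per kb. This order holds for members only. Sem1, a lid subunit outside the naming rule with 0.427 kb of exon, had 220 CPM per kb, above Rpn11 and above Prosbeta1, Prosbeta2 and Prosbeta5. Among members the core genes are also the shorter ones, with exon lengths of 0.852 to 1.22 kb against 0.995 to 3.41 kb for the cap genes.

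Summed over its 12 genes, the core reached a median of 2372 CPM in mated libraries (1928 to 4884, n = 74) and 2539 CPM in virgin libraries (2126 to 3381, n = 15). The cap's 15 genes summed to a median of 3298 CPM in mated libraries (2782 to 4358) and 3295 CPM in virgin libraries (2883 to 3824). Mated and virgin ranges overlapped for both sums. Over the 30 groups, the median core sum was lowest in Netherlands x Beijing, at 1984 CPM, and Beijing x Zimbabwe, at 1994 CPM. It was highest in Netherlands x Netherlands, at 2996 CPM, and Zimbabwe x Ithaca, at 2810 CPM. The median cap sum was lowest in Netherlands x Beijing as well, at 2888 CPM, and highest in Tasmania x Beijing, at 3644 CPM.

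The highest core sums came from libraries in which short genes as a class stood higher relative to long ones. For each library, the slope of log2 expression on log2 exon length over all tested genes, relative to the mean library, ran from -0.483 to 0.177. In 8 libraries it was under -0.2, and there the core sum was 2996 to 4884 CPM (median 3369), against 1928 to 3359 CPM (median 2352) in the other 81. Netherlands x Ithaca replicate 2 had the highest core sum, 4884 CPM, and the lowest slope, -0.483. Beijing x Ithaca replicate 2 came next, with 4156 CPM and a slope of -0.394. The ratio of core to cap sum was 0.848 to 1.16 in the 8 libraries (median 0.913) and 0.641 to 0.866 in the other 81 (median 0.721). Of the 8, 7 were mated, and the virgin one was Tasmania replicate 2, with a core sum of 3381 CPM and a slope of -0.226.

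**Figure D1:**
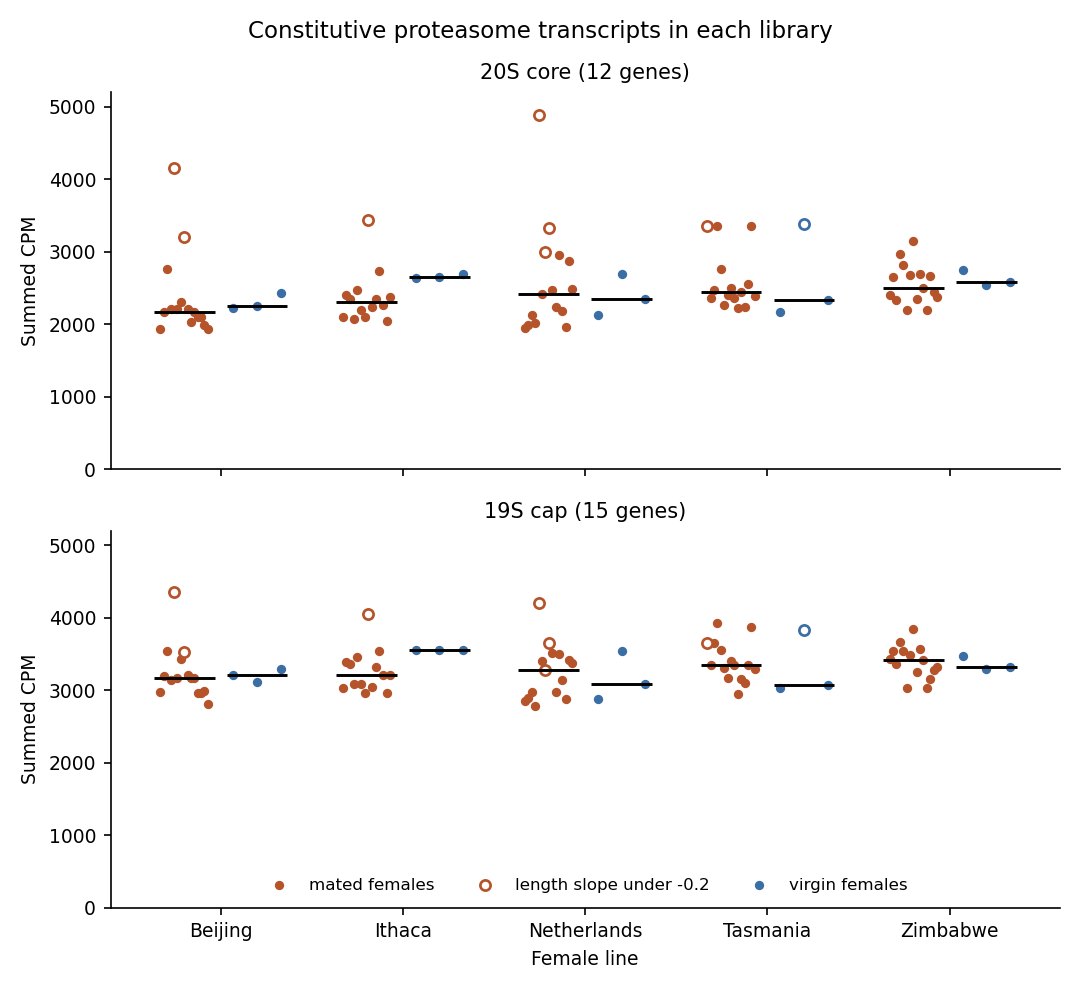
Summed CPM of the 12 core genes and of the 15 cap genes in each library, by female line, with mated libraries left of virgin ones; bars are medians and open symbols are the 8 libraries with a length slope under -0.2. The open symbols hold the highest core sums, up to 4884 CPM. The mated and virgin ranges overlap in each line and panel, for the Ithaca cap sum only through Ithaca x Netherlands replicate 2, an open symbol.

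Among libraries of the same group, core and cap mostly deviated in the same direction. The log2 deviation from the group mean had the same sign for core and cap in 75 of 89 libraries, for the alpha and beta rings in 82, and for base and lid in 73. For the core and the 2 long scaffolds Rpn1 and Rpn2 it had the same sign in 43 of 89. In 75 of 89 libraries the core deviated in the direction opposite to the length slope, and the cap did so in 63. Deviations within a group sum to 0 and these libraries share their depth and scaling, so the counts are descriptions. The spread within groups was smallest for Rpn6, a scaffold of the lid (SD 0.088 on the log2 scale), Rpn2 (0.112), Rpn5 of the lid (0.118) and Rpn1 (0.125). It was largest for Prosalpha7 (0.305), Prosbeta3 (0.299) and Prosbeta6 (0.289). The median was 0.256 over core genes and 0.166 over cap genes, against 0.305 over all 12045 genes tested.

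The first comparison asked what mating does to these genes at 5 to 6 h. None of the 27 constitutive genes passed the test. For the 3 catalytic subunits, the virgin range lay within the mated range. Prosbeta1 had 113, 149 and 311 CPM in mated females (lowest, median and highest, n = 74) and 127, 173 and 198 CPM in virgins (n = 15). Prosbeta2 had 145, 180 and 401 CPM in mated females and 155, 184 and 245 CPM in virgins. Prosbeta5 had 143, 193 and 409 CPM in mated females and 174, 221 and 267 CPM in virgins. Averaged over lines, the log2 difference of mated from virgin females was -0.04 ± 0.07 for Prosbeta1, 0.06 ± 0.08 for Prosbeta2 and -0.06 ± 0.07 for Prosbeta5 (± SE). The 95% intervals were -0.18 to 0.10, -0.10 to 0.22 and -0.20 to 0.09, and all 3 cross 0.

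The cap genes gave narrower bounds. Rpn10 had 163, 205 and 340 CPM in mated females and 182, 203 and 228 CPM in virgins, with a log2 difference of 0.06 ± 0.06 (95% interval -0.05 to 0.17). Rpn11 had 173, 203 and 342 CPM in mated females and 183, 208 and 255 CPM in virgins, with a difference of -0.00 ± 0.05 (-0.11 to 0.11). Rpt2 had 181, 224 and 359 CPM in mated females and 194, 231 and 272 CPM in virgins, with a difference of 0.01 ± 0.06 (-0.10 to 0.12). The virgin range lay within the mated range in each of these genes. The member with the smallest p was Rpn7 of the lid, with 124, 150 and 202 CPM in mated females, 140, 156 and 180 CPM in virgins and a log2 difference of -0.05 ± 0.04 (edgeR's quasi-likelihood test, adjusted p = 0.679). Among the members next in order were Rpn6 with -0.03 ± 0.03, Prosalpha6 with -0.06 ± 0.06 and Prosalpha3 with -0.08 ± 0.08, none of them called.

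Across all genes, 678 of 12045 were called in this contrast (adjusted p under 0.05, edgeR's quasi-likelihood test with Benjamini-Hochberg adjustment), which is 5.63% (4.16% higher and 1.47% lower in mated females). Of the constitutive genes 0 of 27 were called, 0 had an unadjusted p under 0.05, and 0 were called by DESeq2. Their median log2 difference was -0.01, against 0.01 over all genes, with 11 positive and 16 negative values, and every 95% interval lay between -0.23 and 0.22. The count changed when each library's length slope entered the model. Then 4 core genes were lower in mated females, Prosalpha3 (-0.14 ± 0.04, adjusted p = 0.0081), the alpha subunit Prosalpha5 (-0.13, 0.0077), Prosbeta5 (-0.12, 0.0088) and Prosalpha6 (-0.11, 0.0227), while 11.3% of all genes were called and 25 of 27 differences were negative. Without the 8 libraries of low slope, 0 of 27 were called (5.94% of all genes) and 21 of 27 were negative. Without 6 libraries that hold testis RNA, described below, 0 of 27 were called as well (6.1% of all genes).

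**Figure D2:**
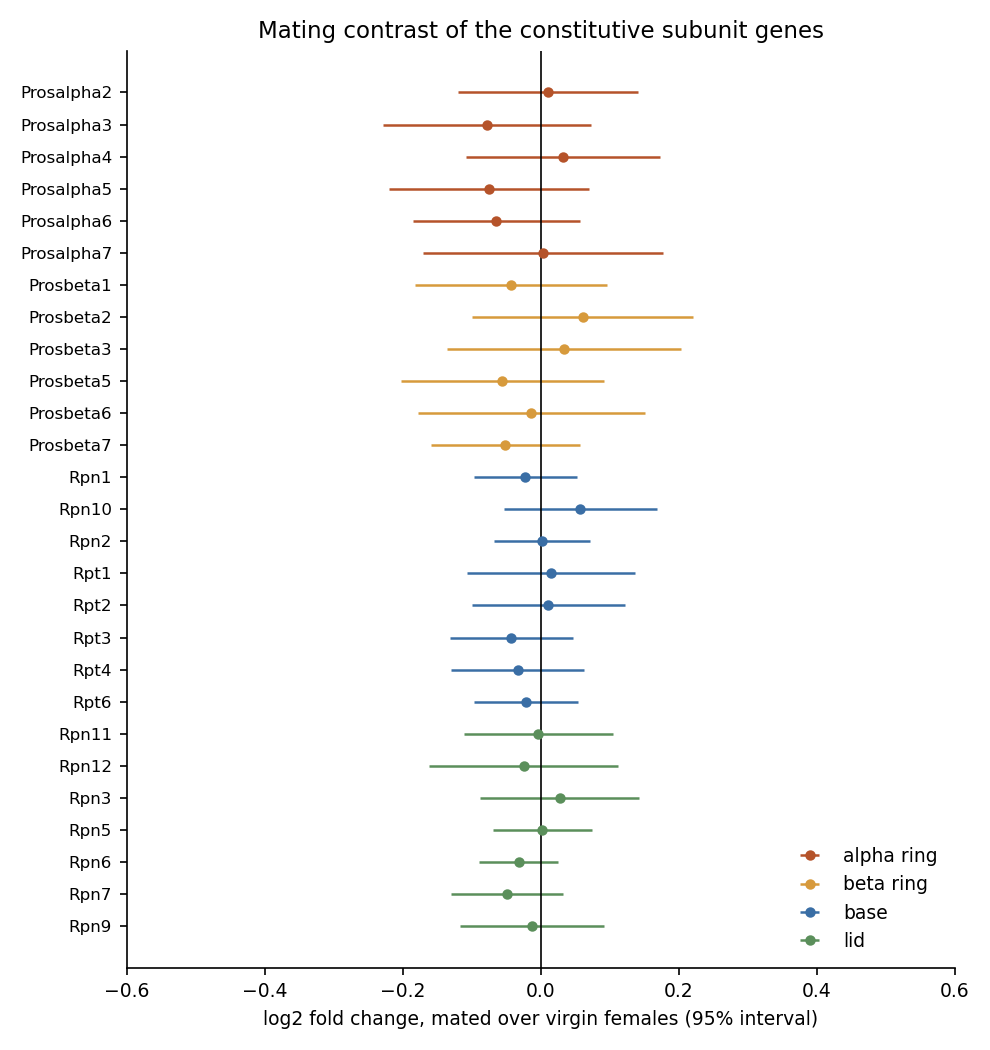
Log2 difference of mated from virgin females for each of the 27 constitutive genes, averaged over the 5 female lines, with 95% intervals and coloured by part of the complex. All intervals cross 0 and lie between -0.23 and 0.22, and those of the core genes are wider than those of most cap genes.

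Nor did any constitutive gene pass the test within a single line. The share of all genes called was 0.0249% in Beijing, 0.174% in Ithaca, 0.125% in Netherlands, 0.822% in Tasmania and 0.083% in Zimbabwe females, so few calls of any kind were made. In edgeR 0 of 27 were called in each line, 1 gene had an unadjusted p under 0.05, in Ithaca, and DESeq2 called 0. Signs were one-sided in Ithaca, where 27 of 27 values were negative (mated minus virgin, median -0.16, from -0.23 to -0.05), against a median of 0.05 over all genes. The Ithaca gene with the smallest p was Rpn7, with 137, 146 and 185 CPM in mated females (n = 14) and 169, 170 and 174 CPM in the 3 virgin libraries, a log2 difference of -0.19 ± 0.09 (adjusted p = 0.526). The highest mated library lay above all 3 virgin ones, so the groups overlapped. In the Ithaca cap sum the overlap came from Ithaca x Netherlands replicate 2 alone, a library of low slope (-0.210) with 4055 CPM. All other mated Ithaca libraries had at most 3543 CPM, below the virgin 3559 to 3560 CPM. In the core sum Ithaca x Tasmania also reached 2736 CPM, above the virgin 2636 to 2697 CPM. In Netherlands 23 of 27 values were positive (median 0.07), in Beijing 19, in Tasmania 16 and in Zimbabwe 12. The values within a line share their 3 virgin libraries, and so do not count as separate signs. The difference of the mating contrast between lines was not called for any of the 27 (0.0664% of all genes, edgeR, and 0 with an unadjusted p under 0.05; DESeq2 was not run on this test). In Ithaca, the 17 of 18 markers of follicle cells and eggshell in the table, each with counts in every library, summed to 8618, 12670 and 36927 CPM in mated libraries and to 26643, 31432 and 41439 CPM in virgin ones; their part in the signs was not tested.

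The second comparison was between female lines. Among virgins it called 27.5% of all genes and 0 of 27 constitutive ones (edgeR, 1 with an unadjusted p under 0.05; DESeq2 was not run on this test). The smallest adjusted p was 0.0629, for Rpn6. Its virgin libraries had 316, 324 and 329 CPM in Ithaca, 299, 304 and 303 in Zimbabwe, 288, 268 and 300.3 in Beijing, 273, 346 and 298 in Tasmania and 249, 287 and 263 in Netherlands. The 3 Ithaca values lay above all others except 1 of Tasmania, and the lines spanned 0.28 on the log2 scale. Prosbeta1 had the next smallest p among constitutive genes, with a span of 0.45 (adjusted p = 0.342). With the length slope in the model, 3 of 27 were called, against 43.9% of all genes, and without the 8 libraries of low slope 2 of 27 were, against 33.3%. In the fit without the libraries with testis RNA 0 of 27 were called, against 31% of all genes.

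With more libraries a line, mated females gave 6 calls. Lines differed in 70.1% of all genes and in 6 of 27 constitutive ones, and the median span between lines was 0.17 on the log2 scale, against 0.56 over all genes. The 6 were Rpn6, Prosbeta1, Rpt4, Rpn1, Rpn2 and Rpn5 (adjusted p = 1.48e-04, 0.0024, 0.0024, 0.0079, 0.0112 and 0.026). Only Prosbeta1 is a core gene. The number of calls depended on which libraries entered. It was 19 with the length slope in the model (81.8% of all genes) and 23 without the 8 libraries of low slope (74.2%). Without the 6 libraries that hold testis RNA it was 4 (70% of all genes). When a replicate number was left out it was 1 to 19, for which the share of all genes is not given. Same-numbered mated libraries of a line tended to deviate together, so the libraries of a line are not fully independent. The p-values between mated lines can therefore be too small. Rpn6 was lost without replicate 1 (adjusted p = 0.0726). Prosbeta1 was lost without replicate 1 (0.0574) or 3 (0.0827), and Rpt4 without replicate 1 (0.223) or 3 (0.161) or without the libraries with testis RNA (0.0678). Rpn1 was lost without replicate 2 (0.189) or 3 (0.055), and Rpn2 without replicate 2 (0.313) or 3 (0.0513) or without the libraries of low slope (0.216). Rpn5 was lost without any 1 of the replicate numbers (0.0690 to 0.559), without the libraries with testis RNA (0.0574) and with no filter on low counts (0.0649).

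Prosbeta1 was high in Zimbabwe and low in Beijing. Mated Zimbabwe females had 157, 181 and 231 CPM (lowest, median and highest, n = 15), and the medians of mated Netherlands, Ithaca, Tasmania and Beijing females were 150, 149, 142 and 132 CPM. Every mated Zimbabwe library lay above the Beijing median, although the highest Beijing library, at 241 CPM, lay above them all. The virgin libraries had 198, 178 and 183 CPM in Zimbabwe and 133, 133 and 142 CPM in Beijing, with no overlap. Against the mean of the other lines, mated Zimbabwe females were higher by 0.26 ± 0.07 on the log2 scale (adjusted p = 0.0019), and mated Beijing females differed by -0.23 ± 0.07 (adjusted p = 0.0078). Without replicate 1 or 3 the adjusted p was 0.0947 or 0.0529 for Zimbabwe and 0.0732 or 0.0844 for Beijing.

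Rpn6 was lowest in Netherlands females. Mated Netherlands females had 241, 265 and 301 CPM, and the medians of the other mated lines were 302 in Zimbabwe, 298 in Ithaca, 298 in Tasmania and 286 in Beijing. The log2 difference of Netherlands from the other lines was -0.14 ± 0.03 (adjusted p = 7.28e-05), and 0.0957 was the adjusted p without replicate 1. Netherlands females were also lower in Rpn5, with a median of 241 CPM and a log2 difference of -0.10 ± 0.04 (adjusted p = 0.0351), and in Rpn2, with a median of 313 CPM and a difference of -0.09 ± 0.04 (adjusted p = 0.0435). The calls of Rpn5 and Rpn2 were lost without any 1 of the replicate numbers, with adjusted p up to 0.499 and 0.657, and without the libraries of low slope (0.256 and 0.333), without the libraries with testis RNA (0.0778 and 0.0765) and with no filter (0.139 and 0.119). Rpn2 was also lost with the length slope in the model (0.0514). All 3 are structural proteins of the cap, and the ranges of Netherlands overlapped those of the other lines in each.

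Rpt4 was low in Ithaca and high in Tasmania. Its lowest, median and highest values were 110, 127 and 169 CPM in mated Ithaca females, 127, 156 and 181 in Tasmania, 127, 146 and 219 in Beijing, 122, 145 and 179 in Zimbabwe and 103, 131 and 177 in Netherlands. Ithaca differed from the other lines by -0.17 ± 0.05 (adjusted p = 0.0067) and Tasmania by 0.13 ± 0.05 (adjusted p = 0.0377). The Ithaca calls of Rpt4 and of Prosalpha5 (-0.20 ± 0.08, adjusted p = 0.0362) were lost without the libraries with testis RNA, 4 of which are Ithaca libraries (adjusted p = 0.157 and 0.387). The Tasmania call of Rpt4 was lost without them too (0.0839) and with no filter (0.0543). In Tasmania Rpn5 was higher too, with 232, 272 and 308 CPM and a log2 difference of 0.11 ± 0.04 (adjusted p = 0.0149). Without replicate 1 or 3 the adjusted p was 0.154 or 0.0748 for Rpt4 in Ithaca, 0.425 or 0.116 for Prosalpha5 in Ithaca, 0.253 or 0.38 for Rpt4 in Tasmania and 0.288 or 0.0788 for Rpn5 in Tasmania.

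The remaining calls were small. Zimbabwe was higher in Rpn1, with 248, 330 and 364 CPM and a log2 difference of 0.14 ± 0.04 (adjusted p = 0.0019), and in the ATPase Rpt3, by 0.13 ± 0.05 (adjusted p = 0.0186). Beijing was lower in the ATPase Rpt6, with a log2 difference of -0.10 ± 0.04 (adjusted p = 0.0348). Rpn1 was lost without replicate 2 (adjusted p = 0.0751), Rpt3 without replicate 1 (0.278) or 3 (0.136), and Rpt6 without replicate 1 (0.0893) or 3 (0.219). Each of the 12 calls of a constitutive gene in a line was thus lost without at least 1 replicate number. In all, 2 constitutive genes were called for Beijing, 2 for Ithaca, 3 for Netherlands, 2 for Tasmania and 3 for Zimbabwe, against 37.8%, 43.5%, 34.8%, 30.9% and 33.2% of all genes. By direction, the 2 lower in Beijing stood against 18.3% of all genes, the 2 lower in Ithaca against 19.8%, the 3 lower in Netherlands against 16.3%, the 2 higher in Tasmania against 16.4% and the 3 higher in Zimbabwe against 16.9%. These counts moved with the libraries and the model. Without the 8 libraries of low slope, 9 of 27 were called for Beijing (42% of all genes), 3 for Ithaca (45.1%), 3 for Netherlands (29.4%), 11 for Tasmania (35%) and 9 for Zimbabwe (38.9%). With the length slope in the model the counts were 8 for Beijing (48%), 4 for Ithaca (52.5%), 6 for Netherlands (40.2%), 10 for Tasmania (41.6%) and 7 for Zimbabwe (43%). Without the libraries with testis RNA they were 5 for Beijing (41.2%), 0 for Ithaca (31.5%), 1 for Netherlands (36%), 1 for Tasmania (33.6%) and 3 for Zimbabwe (35.8%).

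Signs were steadier in some lines than in others. In Beijing 25 of 27 differences were negative with all libraries, and 24 to 26 in these 3 alternatives and when a replicate number was left out. In Tasmania 25 were positive with all libraries and 25 to 26 in the 3 alternatives, but 14 without replicate 1. Zimbabwe had 23 positive values with all libraries and 21 to 27 in the 3 alternatives, but 13 without replicate 1. Ithaca had 25 negative values with all libraries, 14 without the libraries with testis RNA and 16 with the length slope. Netherlands had 18 positive values with all libraries, whereas 24 were negative without the libraries of low slope and 25 with the length slope. The values of a line are read from the same libraries, and so do not count as separate signs. Their median was -0.06 in Beijing, -0.06 in Ithaca, 0.03 in Netherlands, 0.07 in Tasmania and 0.04 in Zimbabwe. Over all genes the medians were -0.03, 0.04, 0.02, -0.03 and -0.03, in that order. The 14 muscle markers, each with counts in every library, summed to a median of 15251 CPM in mated Zimbabwe libraries, and to medians of 7731 to 9383 CPM in the other mated lines; their part in the Zimbabwe calls was not tested.

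**Figure D3:**
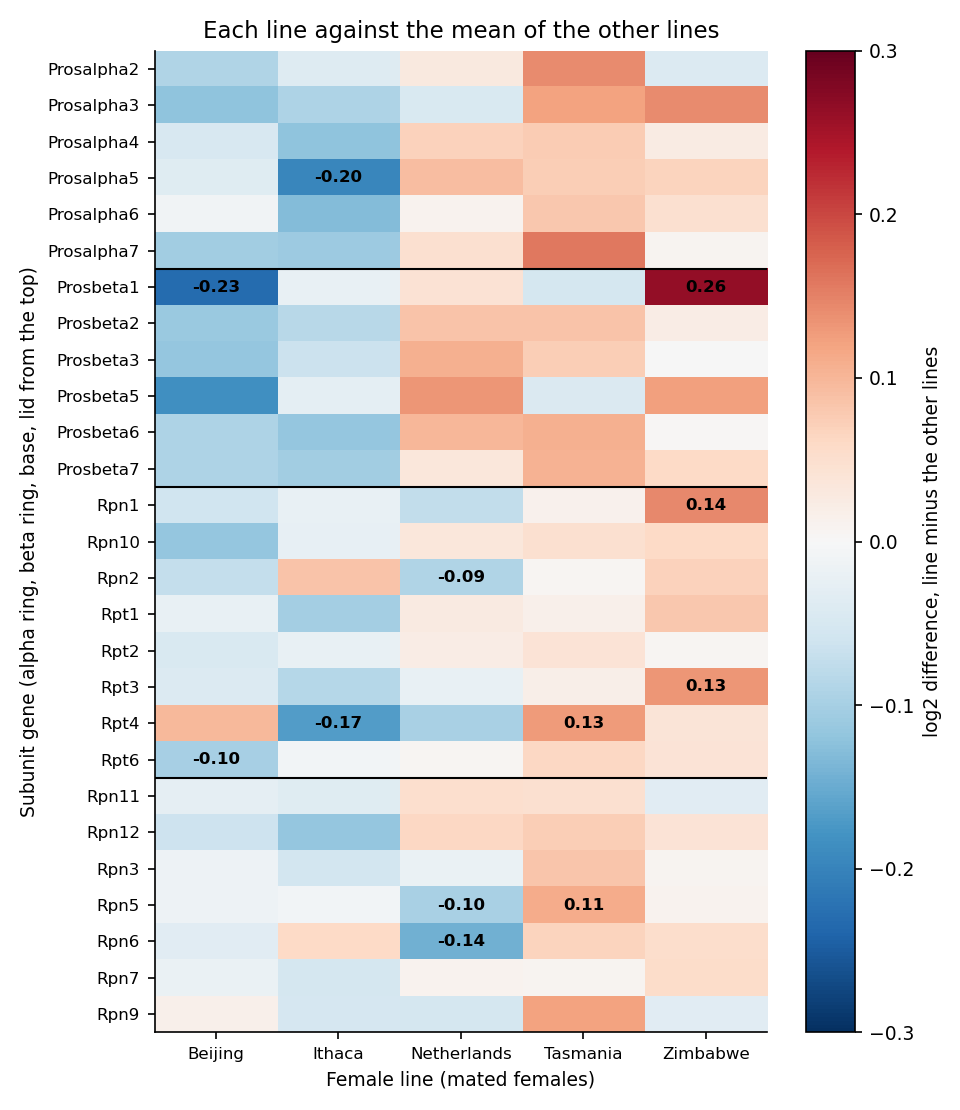
Log2 difference of each female line from the mean of the other 4 in mated females, for the 27 constitutive genes by part of the complex; a number is printed in a cell where the adjusted p is under 0.05. The 12 printed cells reach from -0.23 (Prosbeta1, Beijing) to 0.26 (Prosbeta1, Zimbabwe), and 25 of the 27 Beijing cells are negative. Cells of a column are read from the same libraries and do not count as separate signs.

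The third comparison was between the lines of the males. Averaged over female lines it called 1 of 12045 genes (0.0083%) and 0 of 27 constitutive ones in edgeR. Of the 27, 11 had an unadjusted p under 0.05. The share of all genes at that threshold is not given, so the count is not read as a result about these genes. DESeq2 was not run on tests with several degrees of freedom. The smallest adjusted p was 0.388, for Rpt1, whose means spanned 0.24 on the log2 scale. The median core sum was 2343 CPM in females mated to Beijing males, 2411 with Ithaca, 2469 with Netherlands, 2234 with Tasmania and 2387 with Zimbabwe males. Within each female line, 0 of 27 constitutive genes were called by male line (0.0415% of all genes in Beijing, 7.99% in Ithaca, 11.2% in Netherlands, 0.208% in Tasmania and 0% in Zimbabwe females). In Netherlands females 11 of 27 had an unadjusted p under 0.05, and in Beijing females 1, again without the share of all genes at that threshold. Such genes are read from the same libraries, so they do not count as separate hits. The Netherlands crosses hold both the group with the lowest median core sum and the library of lowest length slope. Crosses with a male of the female's own line were set against crosses with other males last. Here 0 of all genes were called (0%), as were 0 of 27 constitutive genes by edgeR or DESeq2, with 0 at an unadjusted p under 0.05. The median log2 difference was -0.03, against -0.0024 over all genes, with 27 of 27 values negative and 95% intervals within -0.23 to 0.14. These values share their libraries as well, and so do not count as separate signs.

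The testis-type copies were rare in females, and their sums were highest in the 4 libraries with the most RNA of testis and sperm markers. The copies were read with 132 to 2195 counts each over all 89 libraries, and only Rpt3R and Rpt4R, copies of the ATPases Rpt3 and Rpt4, had counts in every library. In 6 mated libraries, the 23 testis and sperm markers that were at or under 1 CPM in every virgin library summed to more than 10 CPM. The 13 copies summed to 53.2 CPM in Ithaca x Zimbabwe replicate 1, 42.2 in Netherlands x Beijing replicate 2, 14.5 in Ithaca x Ithaca replicate 3, 6.04 in Ithaca x Tasmania replicate 3, 3.59 in Ithaca x Netherlands replicate 1 and 2.69 in Beijing x Zimbabwe replicate 1. The marker sums of these libraries, in the same order, were 1624, 1530, 359.7, 78.1, 16.1 and 42.0 CPM, and the seminal fluid genes summed to 600.3, 433, 134, 30.5, 5.32 and 14.4 CPM. Of the 23 markers 0 to 2 were at 0 in these 6 libraries. In the other 68 mated libraries the copies summed to 1.10 to 5.78 CPM (median 1.89) and the markers to 0.405 to 4.12 CPM, with 5 to 21 of 23 markers at 0. In the 15 virgin libraries the copies summed to 1.49 to 4.59 CPM (median 2.01) and the markers to 0.520 to 3.56 CPM, with 8 to 18 of 23 at 0. The ranges of these mated and virgin libraries overlapped, and the 2 lowest sums of the 6 libraries, 3.59 and 2.69 CPM, lay within them.

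The clearest contrast came from copies with almost no counts elsewhere. Prosbeta5R1, a copy of the catalytic subunit Prosbeta5, had counts in 9 of 89 libraries. It stood at 6.58 CPM in Ithaca x Zimbabwe replicate 1, 4.28 in Netherlands x Beijing replicate 2 and 1.25 in Ithaca x Ithaca replicate 3, and at 0 in all virgin libraries. Prosbeta4R2, a copy of the beta subunit Prosbeta4, had counts in 7 libraries, with 6.00 CPM in Ithaca x Zimbabwe replicate 1, 4.44 in Netherlands x Beijing replicate 2, 1.25 in Ithaca x Ithaca replicate 3 and 0 in all virgins. Rpn12R, a copy of Rpn12, had 5.47, 4.57 and 1.50 CPM in these 3 libraries, in that order, and at most 0.096 CPM in a virgin one. Prosalpha4T2, a copy of Prosalpha4, had 5.08, 5.27 and 1.03 CPM there, and at most 0.089 CPM in virgins. Marker RNA and counts of a copy did not always go together. Prosbeta5R1 had 0 counts in Ithaca x Netherlands replicate 1, which has testis RNA, and 1 count in each of 4 mated libraries without it.

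The proportions of the copies differed between the 3 highest libraries. Prosalpha6T, a testis copy of Prosalpha6, had 5.21 CPM in Ithaca x Zimbabwe replicate 1, 0.789 in Netherlands x Beijing replicate 2 and 1.17 in Ithaca x Ithaca replicate 3. Rpt6R, a copy of Rpt6, had 4.04, 4.94 and 0.660 CPM in the same libraries. The males of these crosses were of the Zimbabwe, Beijing and Ithaca lines, with 1 library each, so this difference has no replicate check. The copies Prosbeta2R2, Rpt4R, Prosbeta2R1, Prosalpha3T, Prosbeta4R1 and Prosalpha4T1 reached 1.41 to 3.61 CPM in the 2 highest libraries.

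**Figure D4:**
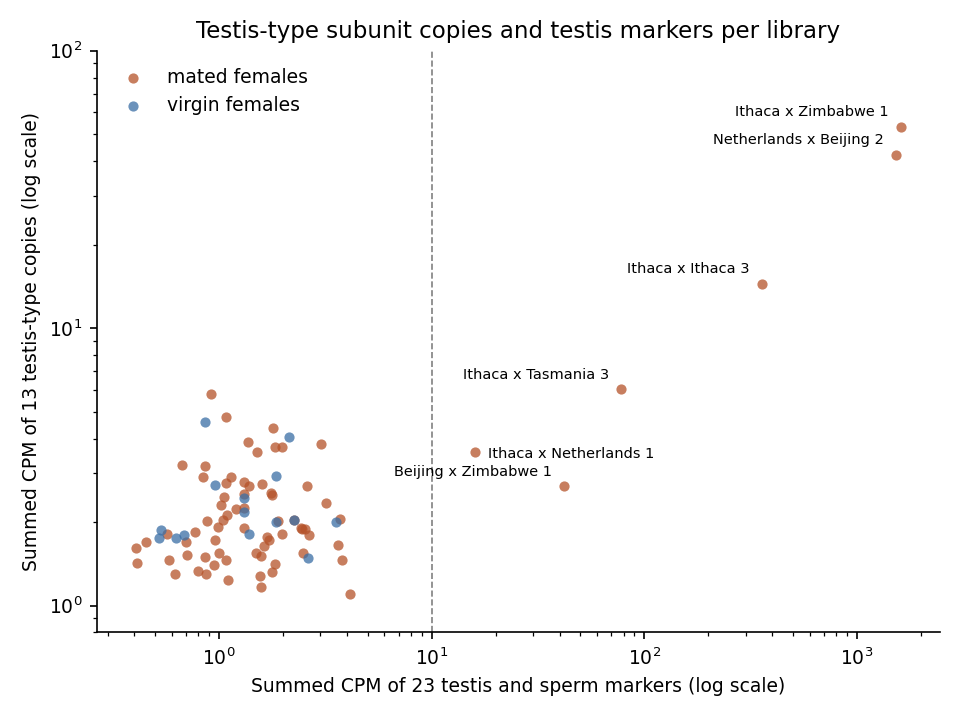
Summed CPM of the 13 testis-type copies against the summed CPM of 23 testis and sperm markers in each library, both on log axes; the dashed line marks 10 CPM and the 6 libraries beyond it are named. Below the line mated and virgin libraries mix between 1.10 and 5.78 CPM, and beyond it the copies reach 53.2 CPM.

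Only Rpt3R and Rpt4R still had enough counts to be tested without the 6 libraries with testis RNA. The other 11 copies passed the filter through those libraries, so no count over the copies is given as a result. Between mated and virgin females, 0 of the 2 were called in that fit (mean over lines, edgeR, 6.1% of all genes). With all libraries, edgeR and DESeq2 called 0 of 13, against 5.63% of all genes in edgeR. In edgeR 0 had an unadjusted p under 0.05. That test could not decide for copies at 0 in all virgins. There the log2 difference had an SE of 1.35e+06 for Prosbeta5R1 and 5946 for Prosbeta4R2. Rpt4R was called in the test of female line by male line (edgeR, adjusted p = 0.0237, 3.53% of all genes). This call was lost without the libraries with testis RNA (adjusted p = 1).

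Between female lines, Rpt3R was tested with and without the libraries that hold testis RNA. It was the most abundant copy and was high in Ithaca females. Mated Ithaca females had 1.82, 2.97 and 7.56 CPM (n = 14), and the other mated lines had medians of 1.13 in Zimbabwe, 1.07 in Netherlands, 1.05 in Tasmania and 0.897 in Beijing. The virgin libraries had 2.14, 2.87 and 3.44 CPM in Ithaca, 0.782, 1.49 and 1.92 in Netherlands, 1.06, 0.979 and 1.76 in Zimbabwe, 1.00, 0.828 and 0.863 in Tasmania and 1.05, 1.03 and 0.694 in Beijing. All 3 Ithaca virgin libraries lay above all 12 others. Among mated libraries without testis RNA, 7 of 10 Ithaca libraries lay above the highest of the 58 others, 2.31 CPM. The log2 difference of mated Ithaca females from the other lines was 1.59 ± 0.14, or 3.00-fold (adjusted p = 9.58e-15; 23.7% of all genes were called as higher in Ithaca), and it was 1.50 without the libraries with testis RNA. It stayed called in the 10 alternatives run. The difference among virgin lines spanned 1.64 (adjusted p = 0.0067) and was lost without replicate 3 (adjusted p = 0.254). The log2 difference of Beijing from the other lines was -0.84 ± 0.17 (adjusted p = 2.72e-05). A library of the mated females without testis RNA held 3 to 67 Rpt3R counts, which limits the precision of each value.

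**Figure D5:**
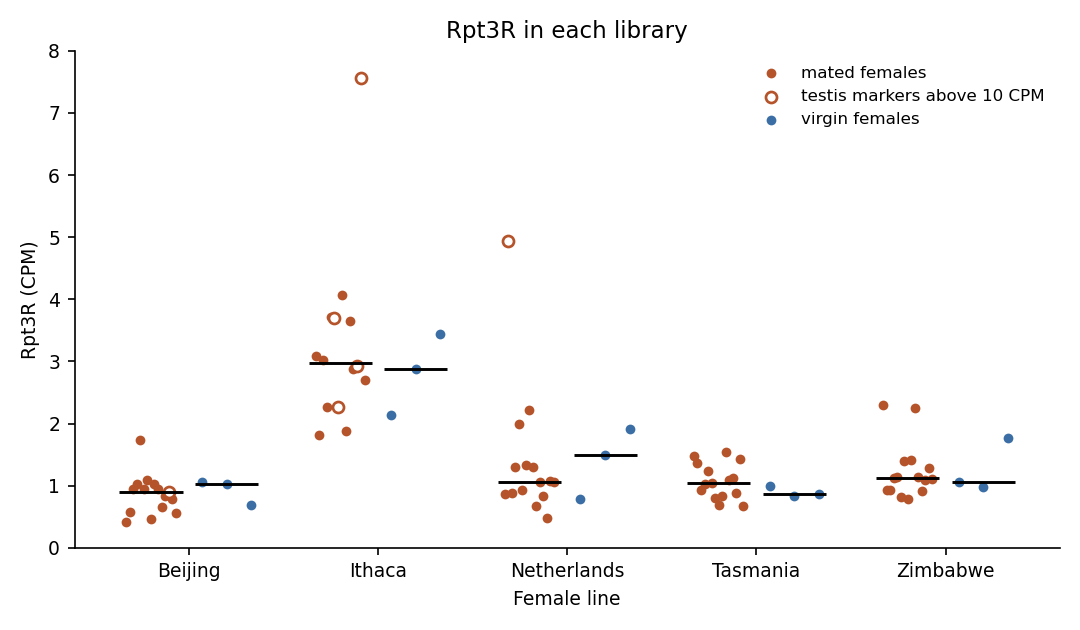
CPM of Rpt3R in each library by female line, mated left of virgin; open symbols are the 6 libraries with testis markers above 10 CPM. Ithaca females stand highest in both states, with medians of 2.97 CPM in mated and 2.87 CPM in virgin libraries, against mated medians of 0.897 to 1.13 CPM in the other lines.

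Prosbeta4R1, another copy of Prosbeta4, was found mainly in Ithaca females. Among mated libraries without testis RNA it had counts in 9 of 10 of Ithaca and in 3 of 58 of the other lines. Among virgins it had 0.0737, 0.221 and 0.191 CPM in the 3 Ithaca libraries and 0 in the 12 others. The Ithaca libraries thus held reads of this copy with no mating, at a level far below that of any constitutive subunit. Prosbeta4R1, like Rpt6R and Prosbeta2R2 that follow, passed the filter only through the libraries with testis RNA. No p-value is therefore given for the line differences of these 3 copies, which were not tested without those libraries.

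Rpt6R was low in Zimbabwe females. Among mated libraries without testis RNA it had counts in 5 of 15 of Zimbabwe, with a median of 0 CPM, and in 49 of 53 of the other lines, with a median of 0.188 CPM. The difference of Rpt6R was not tested in a fit of these libraries, as the copy did not pass the filter there. In virgins 2 of 3 Zimbabwe and 10 of 12 other libraries had counts, and the ranges overlapped. Prosbeta2R2, a copy of Prosbeta2, had counts in 10 of 10 Ithaca and 37 of 58 other mated libraries without testis RNA, with medians of 0.160 and 0.0686 CPM. The difference of Prosbeta2R2 was not tested in a fit of these libraries either.

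The wider ubiquitin system was described from 2 lists. Of 21 regulators and suppliers of ubiquitin, 1 was called between mated and virgin females, near the 5.63% of all genes, and the list's median was -0.02, against 0.01 over all genes. It was Keap1, the inhibitor of the transcription factor cnc, which governs proteasome genes under stress. Keap1 averaged 26.2 ± 9.53 CPM in mated females (SD, n = 74; 11.8 to 48.3 CPM) and 22.5 ± 7.06 CPM in virgins (n = 15; 15.6 to 36.4 CPM), and the mean log2 difference was 0.21 ± 0.07 (edgeR, adjusted p = 0.0481). The groups overlapped, and the call was lost in 14 of 25 alternatives, with adjusted p up to 0.366 and a difference of 0.17 or more in each. Of the 9 subunits of the COP9 signalosome, a relative of the lid that removes Nedd8 from ubiquitin ligases, 0 were called between mated and virgin females by edgeR or DESeq2, with 0 at an unadjusted p under 0.05.

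Between mated lines, 10 of the 21 regulators were called (70.1% of all genes). Ubi-p63E, a polyubiquitin gene, had medians of 331 CPM in mated Zimbabwe, 236 in Beijing, 201 in Netherlands, 198 in Ithaca and 146 in Tasmania females. Ubi-p5E, the other polyubiquitin gene, had 733 in Beijing, 598 in Netherlands, 493 in Tasmania, 440.4 in Ithaca and 416 in Zimbabwe. The lines spanned 1.19 and 0.79 on the log2 scale in these genes, against at most 0.40 among the 27 constitutive members. The lowest Zimbabwe library for Ubi-p63E, 282 CPM, lay above the highest of Ithaca, 278 CPM, and the lowest Beijing library for Ubi-p5E, 679 CPM, lay above the highest of Netherlands, 672 CPM. Of the COP9 subunits, 4 of 9 were called between mated lines, with CSN4 spanning 0.29, CSN1b 0.18 and CSN3 0.15.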

How the data were processed

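Whole-fly RNA was read from 1 end for 100 bases, per the labels' protocols. The submitters' processing notes name FastQC, Trimmomatic, TopHat2 and HTSeq, and the build dm3; versions and the strand setting are not given in the sources used here. The deposited values are raw counts per gene, with no normalization by the authors. They cover 89 of 90 labelled samples; Ithaca x Zimbabwe replicate 2 was not analysed here. Of 14522 genes listed, 8 have a number in place of a name and were left out. Names and exon lengths come from a reference of another build, in which 14321 symbols matched (98.7%), so no coordinates are given. Members share few exon bases with other genes, at most 13.0% (Rpt6 with CG1801, opposite strand). No pair of replicate libraries agreed within counting error (lowest ratio of chi-square to its degrees of freedom 12.7 among 88 pairs, genes with at least 20 counts in a pair).

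Analyses used R 4.3.3, edgeR 4.0.16, limma 3.58.1 and DESeq2 1.42.0. filterByExpr over the 30 groups kept 12045 genes, TMM factors were 0.740 to 1.10, and all libraries entered 1 robust quasi-likelihood model with a mean for each group. Comparisons were contrasts of group means, two-sided, called at a Benjamini-Hochberg adjusted p under 0.05 over all genes; CPM use TMM library sizes. Flies came from separate bottles per the labels' protocols, and p-values measure the spread between such pools, taken as independent. Between mated libraries of a line this did not fully hold, as described below.

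Members and lists were chosen with earlier results of these data known. Named throughout were the catalytic beta subunits, Rpn10, Rpn11, Rpt2 and the testis-type copies, and, per comparison, the members with the smallest p: 5 for mated minus virgin (with the 3 largest rises and falls), 6 among virgin lines, 10 among mated lines, up to 3 called rises and 3 called falls per line, and otherwise all calls up to 6, or 4 above that, or the first member. The lists added up to 3 called genes. Replicate numbers are shared between groups. Same-numbered libraries deviated together (correlation over 0.1) in 6 of 15 cases of virgin against mated, and in 106 of 146 pairs between crosses of a female line. The main model did not treat the numbers as pairs, so its p-values between mated lines can be too small. Alternatives were DESeq2's size factors, DESeq2's test, no filter, the replicate block, the length slope, leaving out replicates, virgin libraries or libraries with testis RNA, total-count CPM and longest transcripts. Leaving out libraries of low length slope, leaving out libraries with testis RNA, and dropping bol, which had counts in all virgins, from the testis markers, were chosen after seeing the data. The tests were also run on simulated data.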

Additional observations from a re-analysis of the deposited data

Results flagged for a closer look

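Rpt4R, a copy of the ATPase Rpt4, differed between female lines in how its level varied with the line of the male (female line by male line, edgeR, adjusted p = 0.0237). The value was lost without the libraries with testis RNA and without replicate 1 or 2 (adjusted p = 1 each), without replicate 3 (0.058), with the length slope in the model (0.0569) and without the libraries of low slope (0.0585).

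2 further copies stand in the table under names outside the rule for members and had reads in mated females above the virgin level. Prosbeta5R2 (CG31742) reached 2.32 CPM in a mated library and at most 0.072 CPM in a virgin one. Rpn13R (CG6789) reached 2.51 CPM in a mated library and at most 0.294 CPM in a virgin one. The libraries with the highest values were among those with testis RNA.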

How the results depend on the processing

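Among counts and summed levels recomputed under alternatives, 231 values stayed within their limits and 31 moved. Among values of named members, 747 kept their direction and side of the threshold, 81 lost the call, 10 gained it and 16 changed sign. The 747 include many values that were not called and stayed so, and the 231 include counts that stayed at 0. These tallies therefore do not measure how steady the calls were. With the length slope in the model, constitutive calls came to 4 for mated minus virgin, 3 for virgin lines, 19 for mated lines, 35 for each line against the others (12 as reported) and 0 for Rpt4R's female line by male line. Without the libraries of low slope, calls were 2 for virgin lines, 23 for mated lines, 35 for each line against the others and 0 for female line by male line. Without the libraries with testis RNA, Rpt3R and Rpt4R were the only copies tested. Both were called between mated lines (70% of all genes), and they made 4 calls for each line against the others (31.5% to 41.2% of all genes per line). Neither was called by male line within lines or for female line by male line. The replicate block fitted a shift per replicate number over all groups, not for each line. Virgin against mated libraries had correlations of -0.362 to 0.422, and 6 of 15 virgin libraries correlated best with their own number. Between crosses of a line the median was 0.270 for same numbers and -0.111 for others, with -0.867 as the lowest for a same number. With the block, calls were 1 for virgin lines, 9 for mated lines and 16 for each line against the others. The share of all genes is not given for the block, so these counts are not read as a result about the members. Leaving out replicates gave 0 to 1 calls for virgin lines (constitutive genes and copies alike). For mated lines it gave 1 to 19 constitutive genes and 3 to 4 copies. For each line against the others it gave 2 to 29 and 4 to 9. It gave 2 to 11 copies by male line within lines and 0 for female line by male line. Copies other than Rpt3R and Rpt4R passed the filter through the libraries with testis RNA. The share of all genes is not given for these fits either. The counts, those of copies above all, are therefore not read as a result about the members. Signs changed in the mated minus virgin contrast for Prosbeta2 (-0.0059 with the length slope, -0.0047 to 0.13 without replicates), Rpt2 (-0.0287 with the length slope, -0.0029 without the libraries of low slope, -0.0253 to 0.0444 without replicates) and Rpn11 (-0.0320 to 0.0301 without replicates), none of them called. For Prosalpha6T, mated minus virgin in Zimbabwe (-1.82, not called), leaving out replicates gave -2.54 to 1.19. The causes were not tested. Counts of the copies limit all statements on them: most libraries without testis RNA hold 10 to 95 counts over all 13.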

Other observations

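Further constitutive subunits carry names that the rule does not take. Prosbeta4 (CG17331), the beta subunit whose testis-type copies were described above, averaged 169 CPM, with a log2 difference of mated from virgin females of 0.01 ± 0.09 (± SE). Rpt5 (Tbp-1), the remaining ATPase of the base, averaged 181 CPM and differed by 0.02 ± 0.05. Rpn8 (Mov34), the partner of Rpn11 in the lid, averaged 194 CPM and differed by -0.04 ± 0.03. Rpn13 (CG13349), a ubiquitin receptor, averaged 169 CPM and differed by 0.07 ± 0.08. Sem1 (CG13779), a small lid subunit, averaged 94.1 CPM, or 220 CPM per kb, and differed by -0.10 ± 0.09 (edgeR, adjusted p = 0.718). None of these 5 was called between mated and virgin females. Between mated lines Sem1 spanned 0.42 on the log2 scale (adjusted p = 0.0066). Prosalpha1R (CG30382), a copy of Prosalpha1, was listed at 0 in all libraries, as was Prosalpha1 itself.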
